A study of Mus musculus with 12 samples.

Results

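The 47 genes described here build and supply the DNA replication machinery: the origin licensing factors, the replicative helicase and its activators, the polymerases, the sliding clamp and its loader, the enzymes that provide deoxynucleotides, cyclin E and the E2F activators, and a few factors that copy chromatin behind the fork. They were the rows of a deposited read count table for mouse macrophages whose gene symbol was on a list of 47 symbols. All 47 were found, among 56748 genes in the table and 37542 in the rows used here, and all 47 were among the 12261 genes that passed the low-count filter. RNA was sequenced from bone-marrow-derived macrophages of C57BL/6N mice, either wild type (WT) or Alpk1 knockout (KO). In every group the marrow cells had been cultured for 7 days with medium conditioned by L929 cells, a fibroblast line whose medium is a common source of the growth factor M-CSF. The cells then received either the vehicle PBS or 100 µM ADP-Hep, the bacterial sugar nucleotide that activates the kinase ALPK1, and were collected after 4 h. This gave 4 groups (WT PBS, WT ADP-Hep, KO PBS and KO ADP-Hep) of 3 libraries each. Nothing in the labels tells whether replicates are different mice, different dishes or repeats of 1 dish, so the spread behind each p-value could be purely technical.

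Replication starts when ORC and CDC6 mark an origin and CDT1 helps to load the MCM2 to MCM7 ring onto it. In S phase the ring is joined by CDC45 and the GINS complex, primase and the polymerases start copying, the PCNA clamp holds the polymerases on DNA, and RPA coats the exposed single strands. Most of these genes are transcribed in a wave at the entry into S phase that is driven by E2F transcription factors, and M-CSF keeps cultured bone marrow macrophages cycling. ALPK1 is a cytosolic receptor for ADP-Hep, and its activation switches on NF-κB and inflammatory genes in macrophages.

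The promoters of the members with the most different responses are shown first, because the results below compare members by the E2F-type motif. The sequences are from RefSeq (GRCm38.p6) and run 5′ to 3′ on the strand of the gene. Each is the part of the 250 bases before the RefSeq start that holds no annotated exon, and capitals mark a match to an E2F-type motif on either strand. The Cdt1 region is chr8:122567765-122568014 (plus strand), the E2f2 region chr4:136172024-136172273 (plus), the Cdc6 region chr11:98907982-98908150 (plus) and the Rpa2 region chr4:132768110-132768331 (plus). Cdt1, E2f2 and Cdc6 had the largest falls after ADP-Hep in WT cells, and Rpa2 was the 1 member that rose there.
Cdt1: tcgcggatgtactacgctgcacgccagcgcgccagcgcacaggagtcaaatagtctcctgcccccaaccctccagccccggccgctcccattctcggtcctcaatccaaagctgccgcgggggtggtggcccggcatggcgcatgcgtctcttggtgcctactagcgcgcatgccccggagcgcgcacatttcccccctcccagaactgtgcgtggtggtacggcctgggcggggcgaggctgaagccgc
E2f2: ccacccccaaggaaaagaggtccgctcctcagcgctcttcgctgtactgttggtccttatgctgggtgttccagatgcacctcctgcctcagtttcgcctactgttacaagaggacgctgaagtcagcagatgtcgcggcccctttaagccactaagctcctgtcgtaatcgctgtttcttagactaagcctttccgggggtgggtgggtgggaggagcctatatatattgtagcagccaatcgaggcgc
Cdc6: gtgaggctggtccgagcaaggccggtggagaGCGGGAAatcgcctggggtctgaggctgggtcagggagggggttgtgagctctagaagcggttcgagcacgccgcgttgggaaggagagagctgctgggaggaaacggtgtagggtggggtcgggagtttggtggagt
Rpa2: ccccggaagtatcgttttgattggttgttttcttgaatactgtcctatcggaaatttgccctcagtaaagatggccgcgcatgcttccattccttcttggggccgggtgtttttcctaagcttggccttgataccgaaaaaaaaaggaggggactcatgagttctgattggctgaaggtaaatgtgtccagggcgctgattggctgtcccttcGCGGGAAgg
The Cdc6 stretch lies in an intron of the longer gene model in GENCODE, whose start is 350 bases upstream of the RefSeq start. Cdc6 and Rpa2 each hold 1 match in the printed stretch, at 138 and 37 bases before the RefSeq start. The matches of Cdt1, at bases 18 and 33 after the start, and of E2f2, at base 40 after it, fall outside the printed stretch.

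Library totals ranged from 16110654 to 31333973 counts, and 71.3 to 85.2% of them lay in the rows used. Alpk1 checked the labels: it was at 25.9 to 32.1 CPM (read counts relative to the library total, scaled with edgeR's TMM factors) in WT PBS, 52.3 to 55.3 in WT ADP-Hep, 20.3 to 22.3 in KO PBS and 19.2 to 22.5 in KO ADP-Hep. Under PBS the KO level was lower than that of WT (log2 fold change -0.45 ± 0.08, adjusted p = 0.00037), as it was with ADP-Hep (-1.34 ± 0.07, adjusted p = 1.5e-14). The KO libraries kept Alpk1 reads, and no source used here says which exons were deleted. The 10 macrophage markers summed to between 26110 and 31160 CPM in every library, mostly from Lyz2, whereas the 5 T and NK cell markers were each at or under 0.1 CPM. Within the macrophage list 6 genes were higher and 2 lower with ADP-Hep in WT: Cd14, the LPS co-receptor gene, rose (3.56, adjusted p = 8.3e-17), and the receptor kinase gene Mertk (-2.28, adjusted p = 3.5e-20) and Cd68 (-0.27, adjusted p = 0.0002) fell. Throughout, values after ± are approximate standard errors of a log2 fold change, adjusted p-values are from edgeR's quasi-likelihood test with Benjamini-Hochberg adjustment over the 12261 genes, and a member is called when its adjusted p is under 0.05.

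Members were well covered, with 30 to 5576 counts per library. Per kilobase of exon, Pcna, the clamp itself, was highest in WT PBS at 85.7 CPM, followed by the large ribonucleotide reductase subunit gene Rrm1 (53.0), Mcm6 (31.1) and the small subunit gene Rrm2 (26.4). The lowest on that scale were Orc1 (1.39), Cdc6 (1.48) and the flap endonuclease gene Fen1 (1.73), the first 2 of them loading factors. The level of a member and its response in WT cells were weakly correlated (Pearson r = -0.19 across the 47 members, which share the same libraries).

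ADP-Hep lowered the replication genes of WT macrophages. Of the 47 members, 37 were lower, 1 was higher and 9 were not called, and their median log2 fold change was -0.38 against -0.0058 over all genes tested. Among all genes, 31.6% were called lower and 31.9% higher in that comparison. The falls were mostly moderate: 9 members fell by 1.5-fold or more and 3, namely Cdt1, E2f2 and Cdc6, by 2-fold or more. Between log2 fold changes of -0.6 and -0.4 lay 29.8% of members and 7.82% of all genes. Larger falls had closer shares, with 6.38% and 5.0% between -0.8 and -0.6 and 4.26% and 3.07% between -1.0 and -0.8. Between -1.2 and -1.0 the shares were 0% and 2.26%, and between -1.4 and -1.2 they were 4.26% and 1.58%. The mean of log2 CPM over the members was 4.73 to 4.77 in the WT PBS libraries and 4.32 to 4.36 in the WT ADP-Hep libraries. Of 8 mitochondrially encoded mRNAs, mt-Co2, mt-Co3 and mt-Atp6 were at or under 0.1 CPM in every library. None of the 5 tested was called in WT (adjusted p from 0.17 to 0.46). The summed level of the 8 was nevertheless separate between the WT groups. It was 4965 to 5406 CPM with PBS and 6428 to 6885 CPM with ADP-Hep, and it overlapped between the KO groups, at 2801 to 6467 and 4142 to 6998 CPM; its part in the result was not tested. In RNA from a whole culture, fewer cells in S phase and less of these RNAs per cell cannot be told apart.

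**Figure D1:**
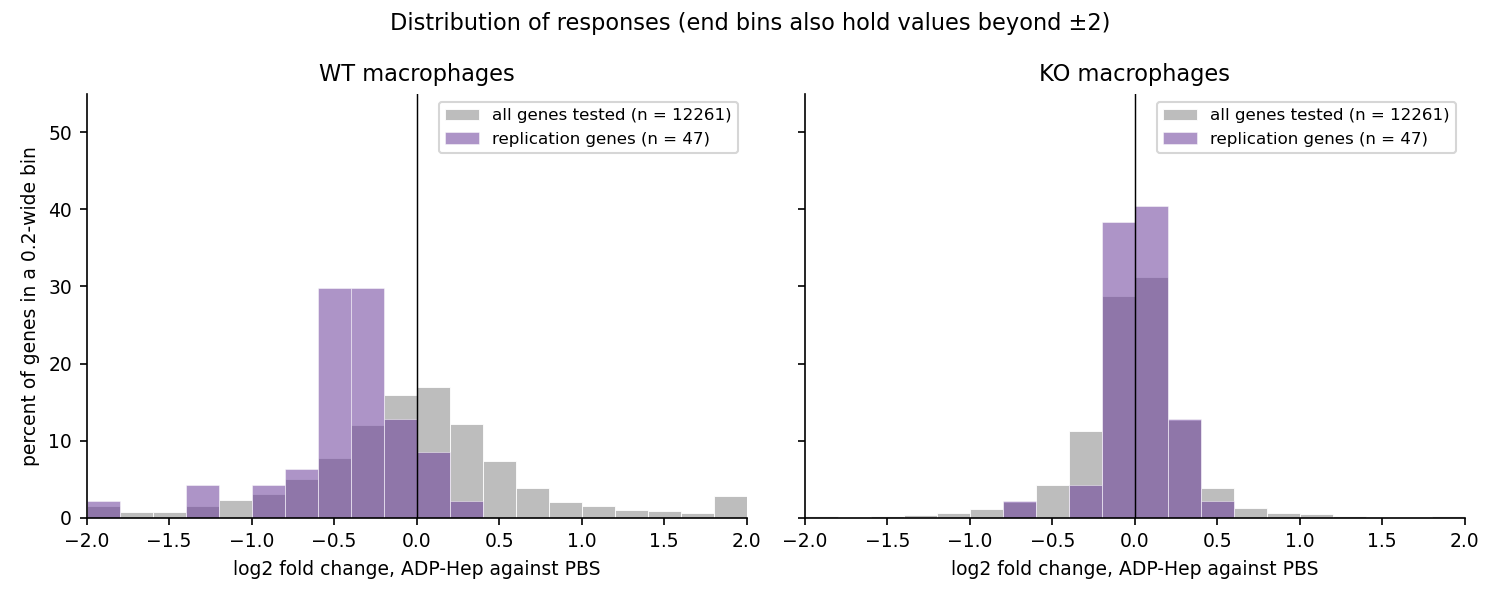
Share of genes (percent, y axis) by log2 fold change after ADP-Hep (x axis, bins 0.2 wide, end bins also holding more extreme values) in WT (left) and KO (right) libraries, for the 47 replication genes (purple) and all 12261 genes tested (grey). In WT the replication genes sit left of 0 with a median of -0.38, and in KO they centre near 0 with a median of 0.03.

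Of the 10 licensing factors 9 were lower, with a median of -0.48. Cdt1, which brings the MCM ring to the origin, was at 38.6, 39.9 and 37.3 CPM in the WT PBS libraries and at 10.4, 10.03 and 10.7 CPM in the WT ADP-Hep libraries. The treated libraries lay far below the controls, a 3.72-fold fall (-1.90 ± 0.07, adjusted p = 8.9e-18). Cdt1 was also lower in KO cells, from 46.6, 44.2 and 46.5 CPM to 27.4, 29.3 and 30.97 CPM (-0.65 ± 0.06, adjusted p = 1.2e-08). The difference between the responses (WT minus KO) was -1.25 ± 0.10 (adjusted p = 4.7e-11).

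Cdc6, the ATPase that loads MCM with ORC, was among the least abundant members, at 6.77, 6.84 and 7.60 CPM in WT PBS and 3.10, 2.54 and 2.68 CPM in WT ADP-Hep. Its groups did not overlap (-1.35 ± 0.13, adjusted p = 1.2e-09). In KO cells Cdc6 stood at 7.90, 7.19 and 7.66 CPM under PBS and 8.95, 8.64 and 8.16 CPM under ADP-Hep, a change that was not called (0.18 ± 0.11, adjusted p = 0.22). The difference between the genotypes' responses was the largest of any member at -1.53 ± 0.17 (adjusted p = 3.8e-08).

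The 6 subunit genes of the MCM2 to MCM7 ring all fell in WT cells, by different amounts. Mcm7 went from 58.4, 55.1 and 51.1 CPM to 31.3, 31.6 and 27.7 CPM, without overlap (-0.84 ± 0.06, adjusted p = 1.1e-11). It shares 12.6% of its exon bases with other genes on both strands. Mcm3 went from 75.3, 71.1 and 73.4 CPM to 50.2, 49.2 and 52.9 CPM (-0.54 ± 0.05, adjusted p = 2.3e-09). Mcm6, the most abundant of the ring genes per kilobase, went from 135, 132 and 142 CPM to 97.5, 97.6 and 95.8 CPM (-0.49 ± 0.05, adjusted p = 8e-10). The change was smaller for Mcm2 (-0.46), Mcm4 (-0.32) and Mcm5 (-0.25), each of them called. The ring subunits are assembled in equal numbers, yet their RNAs spanned a range of -0.84 to -0.25.

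In KO cells Mcm3 had a small negative change and the other ring genes small positive ones. Those of Mcm2 (0.11, adjusted p = 0.18) and Mcm5 (0.089, adjusted p = 0.24) were not called. Mcm4 was at 61.5, 67.2 and 67.5 CPM under PBS and 70.4, 73.3 and 78.0 CPM under ADP-Hep, higher in KO (0.18 ± 0.06, adjusted p = 0.025) and lower in WT, where it went from 62.2, 61.2 and 67.8 CPM to 51.3, 49.2 and 54.3 CPM (-0.32 ± 0.06, adjusted p = 5.1e-05). Mcm6 was likewise higher in KO, at 135, 130 and 135 CPM against 146, 146 and 150 CPM (0.15 ± 0.05, adjusted p = 0.015). Mcm3 was lower, at 87.0, 79.5 and 78.6 CPM against 73.4, 73.2 and 72.6 CPM (-0.16 ± 0.05, adjusted p = 0.021). Mcm7 stayed close to its PBS level, with 56.5, 57.7 and 56.8 CPM under PBS and 58.6, 57.2 and 62.3 CPM under ADP-Hep (0.061 ± 0.06, adjusted p = 0.48). The KO calls of Mcm4, Mcm6 and Mcm3 were each lost when single KO libraries were left out: Mcm4 without KO PBS replicate 1 (adjusted p = 0.14) or the unnumbered KO ADP-Hep library (0.15), Mcm6 without KO PBS replicate 2 (0.065) or the unnumbered library (0.069), and Mcm3 without KO PBS replicate 1 (0.15), KO ADP-Hep replicate 1 (0.056) or the unnumbered library (0.067).

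Orc1 and Orc6 encode subunits of the origin recognition complex. Orc1 was lower in WT cells (-0.48 ± 0.16, adjusted p = 0.014). Orc6 was the 1 licensing gene not called there, at 10.9, 10.8 and 11.3 CPM under PBS and 11.6, 11.6 and 11.4 CPM under ADP-Hep (0.065 ± 0.09, adjusted p = 0.55). The Orc6 values differed little between libraries of all groups, and the sign of its change turned with scaling by library totals (-0.045).

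Of the 6 helicase activation genes 3 were lower in WT cells. Cdc45 (-0.56 ± 0.10, adjusted p = 2.5e-05), Gins4 (-0.43 ± 0.07, adjusted p = 6.5e-06) and Gins1 (-0.40 ± 0.10, adjusted p = 0.0011) were lower. CDC45 and the 4 GINS proteins form the active helicase with the MCM ring, and the remaining GINS genes were not called: Gins2 was at -0.19 (adjusted p = 0.052) and Gins3 at 0.16 (adjusted p = 0.22). Gins2 shares 67.3% of its exon bases with Gse1 on the opposite strand. Mcm10, which helps to activate the assembled helicase, was level in all groups, with 30.5, 30.7 and 30.2 CPM in WT PBS and 30.8, 29.1 and 29.9 CPM in WT ADP-Hep (-0.024 ± 0.07, adjusted p = 0.77). Its KO values were 31.8, 33.0 and 27.6 CPM under PBS, which overlapped those of WT PBS, and 30.8, 33.4 and 31.02 CPM under ADP-Hep. The KO ADP-Hep libraries lay slightly above those of both WT groups. The difference from WT under ADP-Hep was not called (0.078 ± 0.07, adjusted p = 0.30).

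Of the 8 polymerase and primase genes, 7 were lower in WT cells, with a median of -0.39. The catalytic subunit genes had the largest changes: Pola1 of the priming polymerase alpha fell by 36.8% (-0.66 ± 0.07, adjusted p = 2.2e-09), Pold1 of the lagging-strand polymerase delta by 33.8% (-0.60 ± 0.06, adjusted p = 9.8e-09) and Pole of the leading-strand polymerase epsilon by 32.7% (-0.57 ± 0.08, adjusted p = 3.5e-07). The accessory subunit genes Pole2 (-0.36) and Pola2 (-0.24) and the primase genes Prim1 (-0.42) and Prim2 (-0.36) changed less, all of them called. Pold2, the second subunit of polymerase delta, was at 12.4, 11.8 and 9.51 CPM under PBS and 10.8, 12.8 and 11.9 CPM under ADP-Hep. Those Pold2 groups overlapped (0.091 ± 0.10, adjusted p = 0.45), and the sign turned without WT PBS replicate 3 (-0.036) and with library totals (-0.020). In KO cells edgeR called none of the 8 genes (2 higher and 1 lower at an unadjusted p under 0.05, 0 in DESeq2), with values from -0.18 for Pola2 to 0.28 for Pole2.

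Pcna was lower in WT cells by 15.3% (-0.24 ± 0.06, adjusted p = 0.00053). The 5 clamp loader subunit genes differed among themselves. Rfc2 went from 47.2, 46.9 and 45.2 CPM to 29.4, 27.4 and 30.2 CPM, with no overlap (-0.68 ± 0.06, adjusted p = 1.8e-10). Rfc1, the large subunit, fell by as much as Mcm7 (-0.84 ± 0.05, adjusted p = 2.3e-14), and Rfc5 less (-0.19 ± 0.07, adjusted p = 0.018). Rfc3 was spread widely in WT PBS, at 11.5, 14.5 and 16.8 CPM against 13.5, 11.1 and 12.2 CPM in WT ADP-Hep, and was not called (-0.23 ± 0.11, adjusted p = 0.073). Without its lowest control library, WT PBS replicate 1, Rfc3 was called (-0.36, adjusted p = 0.004), as it was without WT ADP-Hep replicate 1 (-0.33, adjusted p = 0.03). Rfc4 was not called (-0.14, adjusted p = 0.27). In KO cells Rfc3 was at 14.99, 15.5 and 14.8 CPM under PBS and 17.8, 15.3 and 17.97 CPM under ADP-Hep, and neither it nor any other gene of the clamp and its loader was called (1 higher and 1 lower at an unadjusted p under 0.05, 0 in DESeq2). Of the exon bases of Rfc2, 15.1% are shared with Lat2 on the opposite strand.

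**Figure D2:**
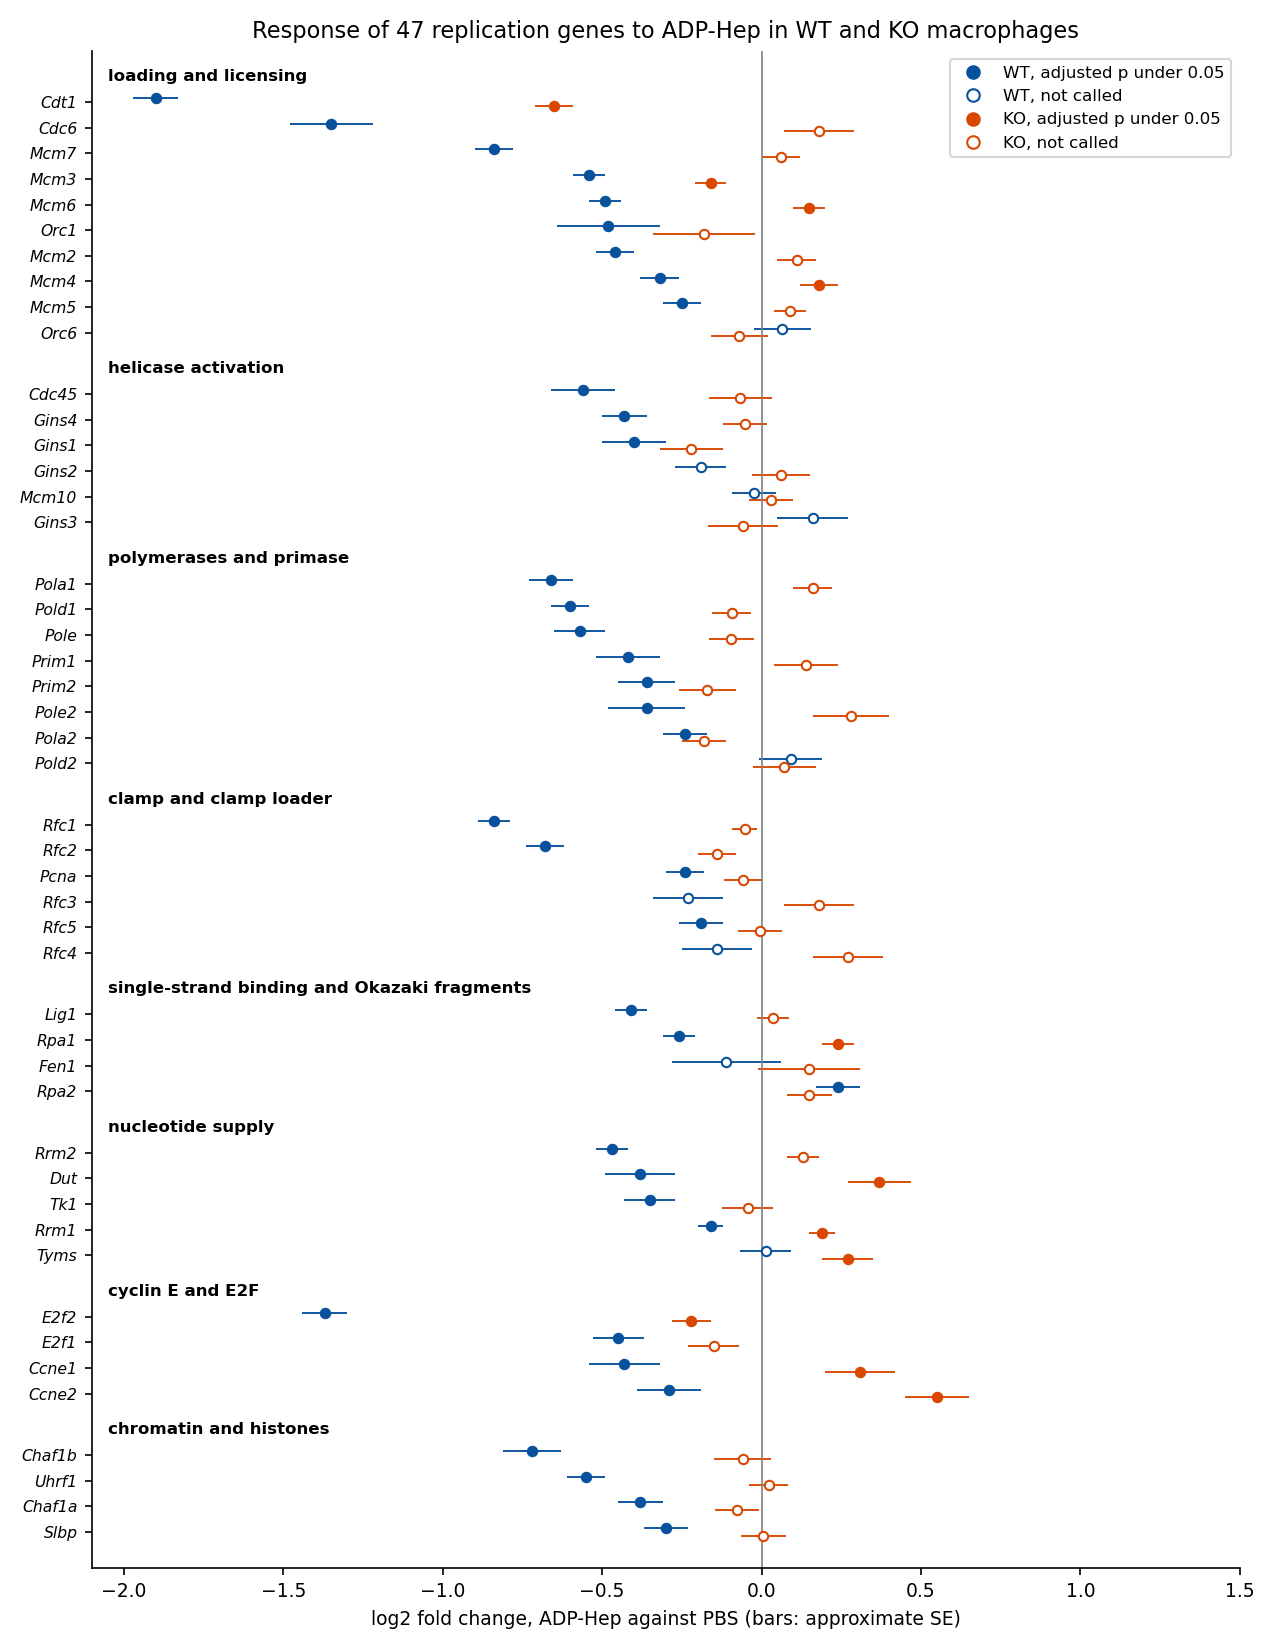
Log2 fold change after ADP-Hep (x axis, bars of 1 approximate standard error) for the 47 genes, grouped by role, in WT (blue) and KO (orange). Filled points have an adjusted p under 0.05; 37 WT points are filled left of 0 and 1, Rpa2, right of it, whereas of the KO points 3 are filled on the left and 8 on the right.

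The genes of single-strand binding and Okazaki fragment processing went in different directions. RPA is a trimer, and the genes of its large and middle subunits moved apart in WT cells. Rpa1 went from 97.7, 99.9 and 101 CPM to 84.1, 83.5 and 82.0 CPM (-0.26 ± 0.05, adjusted p = 3.4e-05). Rpa2 went from 16.8, 17.5 and 18.4 CPM to 21.0, 20.5 and 20.9 CPM, with every treated library above every control (0.24 ± 0.07, adjusted p = 0.006). Rpa2 lost its call when libraries were scaled by their totals alone (0.13, adjusted p = 0.13). The ligase gene Lig1, which seals Okazaki fragments, was lower (-0.41 ± 0.05, adjusted p = 1.3e-07).

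Under ADP-Hep in KO cells both RPA genes had positive changes. Rpa1 rose from 95.8, 102 and 96.9 CPM to 115, 114 and 119 CPM (0.24 ± 0.05, adjusted p = 0.00028), a response opposite to that in WT cells. Rpa2 was at 19.5, 19.3 and 20.1 CPM under PBS and 23.1, 19.95 and 21.8 CPM under ADP-Hep, which overlapped (0.15 ± 0.07, adjusted p = 0.13), and the difference between its responses in the 2 genotypes was not called (0.089 ± 0.10, adjusted p = 0.50). Fen1, which trims the flaps of Okazaki fragments, was at 4.30, 3.28 and 5.01 CPM in WT PBS and 4.61, 3.30 and 3.97 CPM in WT ADP-Hep (-0.11 ± 0.17, adjusted p = 0.57). Its KO values were 4.92, 4.74 and 4.19 CPM under PBS and 5.46, 4.16 and 5.48 CPM under ADP-Hep, so that all 4 groups overlapped. Under ADP-Hep Fen1 was still called higher in KO than in WT (0.37 ± 0.16, adjusted p = 0.046). Fen1 shares 84.2% of its exon bases with genes on the opposite strand, and whether strand was used in counting is not given.

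Among the nucleotide supply genes 4 of 5 were lower in WT cells. Rrm2, the regulated subunit of the reductase that makes deoxynucleotides, went from 57.8, 55.8 and 60.3 CPM to 41.9, 40.7 and 44.1 CPM (-0.47 ± 0.05, adjusted p = 3.4e-08). Rrm1, its large subunit, went from 205, 208 and 222 CPM to 192, 189 and 187 CPM, a fall of 10.7% (-0.16 ± 0.04, adjusted p = 0.0025). Both groups of libraries were separate in each case. Dut, which removes dUTP, went from 9.57, 8.12 and 9.26 CPM to 7.46, 7.09 and 5.87 CPM (-0.38 ± 0.11, adjusted p = 0.0045). The thymidine salvage kinase gene Tk1 was at -0.35 (adjusted p = 0.00031).

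In KO cells 3 of these 5 genes rose. Rrm1 went from 194, 206 and 204 CPM to 234, 224 and 231 CPM (0.19 ± 0.04, adjusted p = 0.0021). Dut went from 10.2, 9.17 and 9.11 CPM to 12.8, 12.8 and 11.2 CPM (0.37 ± 0.10, adjusted p = 0.0095), and without KO ADP-Hep replicate 1 its call was lost (adjusted p = 0.061). Tyms, the gene of thymidylate synthase, went from 18.3, 19.4 and 16.9 CPM to 23.7, 20.03 and 21.7 CPM (0.27 ± 0.08, adjusted p = 0.014). The Tyms call was lost without KO ADP-Hep replicate 1 (adjusted p = 0.13) and without KO PBS replicate 3 (adjusted p = 0.077). In WT cells Tyms stayed level, at 20.9, 18.5 and 19.6 CPM under PBS and 20.2, 20.3 and 18.7 CPM under ADP-Hep (0.014 ± 0.08, adjusted p = 0.89). A processed pseudogene of Tyms is in the annotation, as are 2 of Pcna, so reads of these genes could have been split. Rrm2 was at 66.1, 68.9 and 67.3 CPM and at 72.0, 73.4 and 75.8 CPM, above PBS in every library but not called (0.13 ± 0.05, adjusted p = 0.064).

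All 4 genes of the cyclin E and E2F role were lower in WT cells. E2f2, 1 of the activating E2F factors, went from 45.4, 45.1 and 42.1 CPM to 16.2, 16.6 and 19.2 CPM, a 2.58-fold fall without overlap (-1.37 ± 0.07, adjusted p = 5.1e-15). E2f1, the factor most studied at the G1 to S transition, fell by 26.6% (-0.45 ± 0.08, adjusted p = 6.7e-05). Ccne1, of the cyclin that activates CDK2 before S phase, went from 9.38, 9.40 and 8.33 CPM to 6.44, 7.18 and 6.22 CPM (-0.43 ± 0.11, adjusted p = 0.0018). The second cyclin E gene, Ccne2, went from 12.6, 10.9 and 13 CPM to 10.8, 9.41 and 9.67 CPM (-0.29 ± 0.10, adjusted p = 0.016), and its call was lost without WT PBS replicate 3 (adjusted p = 0.091) or WT ADP-Hep replicate 2 (adjusted p = 0.089).

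In KO cells the 2 cyclin E genes rose while E2f2 fell. Ccne2 went from 11.6, 9.65 and 12.5 CPM to 15.5, 15.9 and 17.4 CPM, the largest rise of any member there (0.55 ± 0.10, adjusted p = 0.00019). Of the exon bases of Ccne2, 17.4% are shared with Ints8 on the opposite strand. Ccne1 went from 10.7, 8.51 and 8.30 CPM to 11.9, 11.2 and 11 CPM (0.31 ± 0.11, adjusted p = 0.031), and its call was lost in 4 of the 6 fits that each left out 1 KO library (adjusted p from 0.052 to 0.14) and in DESeq2 (adjusted p = 0.094). E2f2 went from 50.6, 45.1 and 49.0 CPM to 39.9, 42.8 and 41.8 CPM (-0.22 ± 0.06, adjusted p = 0.011), and its call was lost without KO PBS replicate 1 (adjusted p = 0.072) or KO ADP-Hep replicate 1 (adjusted p = 0.071). E2f1 was not called (-0.15, adjusted p = 0.17).

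The 4 chromatin genes fell together in WT cells, with a median of -0.47. They were Chaf1b (-0.72 ± 0.09) and Chaf1a (-0.38 ± 0.07), of the assembly factor that places new histones, Uhrf1 (-0.55 ± 0.06), which helps to copy DNA methylation, and Slbp (-0.30 ± 0.07), which binds the stem-loop of histone mRNAs. Their adjusted p-values lay between 2.3e-08 for Uhrf1 and 0.0012 for Slbp. In KO cells all 4 lay between -0.08 and 0.02 and none was called (0 at an unadjusted p under 0.05, 0 in DESeq2). Chaf1a shares 52.5% of its exon bases with a gene on the opposite strand, Ubxn6.

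**Figure D3:**
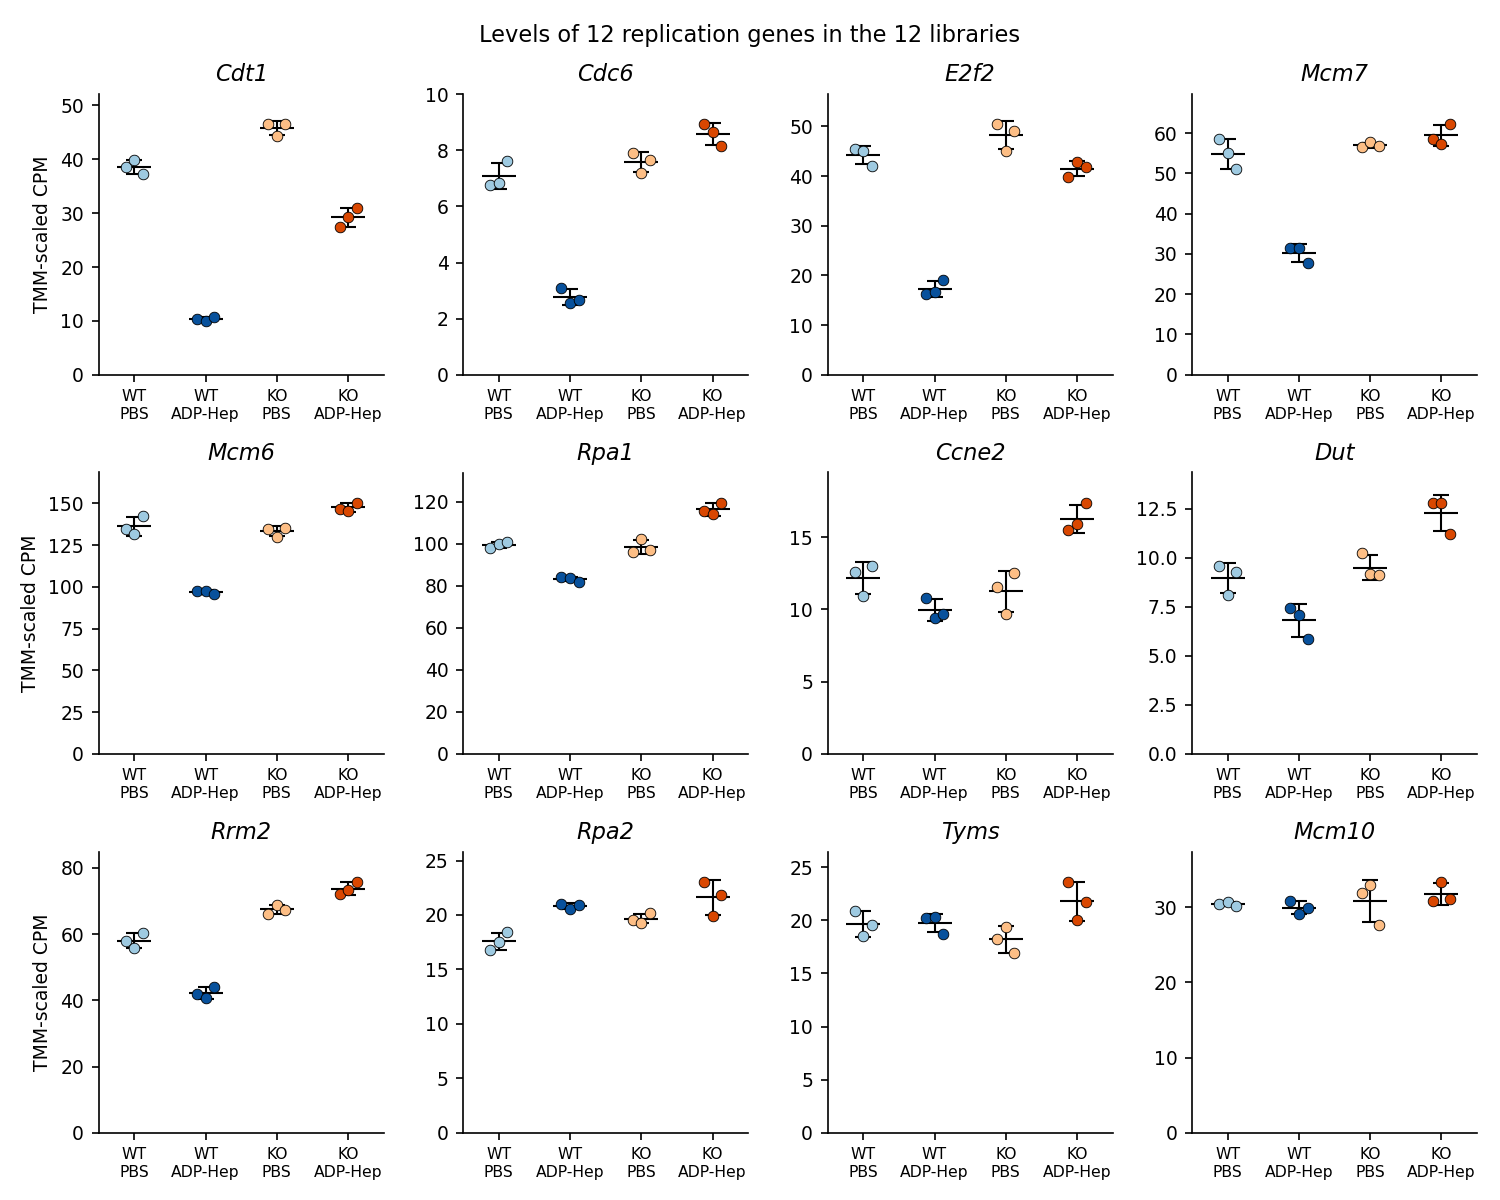
TMM-scaled CPM (y axis, from 0) of 12 members in each library (points), by genotype and treatment (x axis), with the mean and SD of 3 libraries (bars). Cdt1, Cdc6, E2f2 and Mcm7 are lowest in WT ADP-Hep, Ccne2, Dut and Rpa1 are highest in KO ADP-Hep, and Mcm10 and Tyms differ little between the WT groups.

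Across all members the KO response was small: 8 were higher, 3 lower and 36 not called, with a median of 0.03 against 0.0052 over all genes. The background in that comparison was 13.7% of genes called higher and 15.3% lower, so that the 8 higher members (Mcm4, Mcm6, Rrm1, Rpa1, Ccne1, Ccne2, Dut and Tyms) are a share near it. The 3 lower members were Cdt1, E2f2 and Mcm3. Mean log2 CPM over the members was 4.81 to 4.84 in KO PBS and 4.86 to 4.87 in KO ADP-Hep. The counts were sensitive to single libraries, with 5 to 8 members higher and 1 to 6 lower when each KO library was left out, including 5 higher and 1 lower without KO ADP-Hep replicate 1, 1 lower without KO PBS replicate 1 and 6 lower without KO ADP-Hep replicate 3. Markers of neutrophils also moved in KO cells: 5 of 8 tested were lower, and the 10 on the list summed to 242 to 271 CPM in KO PBS and 169 to 179 CPM in KO ADP-Hep. In WT 3 of the 8 were higher, namely Camp (1.05), S100a9 (0.42) and Ngp (0.29), and 1, Csf3r, was lower (-0.58). The 10 markers summed there to 206 to 227 CPM under PBS and 202 to 224 CPM under ADP-Hep. Their part in the KO response was not tested.

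Call by call, 27 members were lower in WT and not called in KO, 7 (Mcm4, Mcm6, Rrm1, Rpa1, Ccne1, Ccne2 and Dut) were lower in WT and higher in KO, and 3 (Mcm3, Cdt1 and E2f2) were lower in both. Over all genes 31.6% were lower in WT, and 13.7% were higher and 15.3% lower in KO. The shares of all genes in each pair of calls were not computed. The KO calls of Mcm4, Mcm6, Ccne1, Dut, Mcm3 and E2f2 were lost when single KO libraries were left out. Tyms was higher in KO alone and Rpa2 in WT alone, by their calls, and 8 members were called in neither genotype; the difference between the Tyms responses was not called (-0.25, adjusted p = 0.065). The test of the difference between the responses called 33 members, all with the more negative change in WT (0 the other way in edgeR, at an unadjusted p under 0.05 or in DESeq2), against a background of 24.9% of genes lower and 24.6% higher in that test. The median of this difference over the members was -0.42, against -0.0099 over all genes. Of the 37 members that fell in WT, 31 were also called in this test. Rfc3 and Rfc4 were called in it (-0.42 and -0.41, adjusted p = 0.031 and 0.030) without being called in WT. Of the 14 members not called in it, Gins3 was the one with the most positive value (0.22, adjusted p = 0.27).

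The tested markers of progenitor cells moved in the same direction as the replication genes in WT. The 5 on the list summed to 22.1 to 23.4 CPM in WT PBS and to 4.46 to 4.89 CPM in WT ADP-Hep, and to 17.6 to 19.8 and 14.8 to 16.2 CPM in KO. All 3 that were tested fell in WT, with Sox4 at -3.49, Kit at -0.98 and Cd34 at -0.57. Kit was near the floor, at 0.43 to 0.91 CPM in WT PBS and 0.33 to 0.43 CPM in WT ADP-Hep. In KO it was at 0.60 to 1.27 CPM with PBS and 0.16 to 0.25 CPM with ADP-Hep. Cd34 was also low, at 2.25 to 3.13 CPM in WT PBS and 1.78 to 1.88 CPM in WT ADP-Hep. In KO Kit (-1.94, adjusted p = 0.0017) and Sox4 (-0.28, adjusted p = 0.02) were lower, and Cd34 was not called (0.58, adjusted p = 0.069). Myb and Gata2 were not tested. Myb was at 0 to 0.34 CPM in WT PBS and 0.49 to 0.69 CPM in WT ADP-Hep, and Gata2 at 0.07 to 0.34 and 0.18 to 0.35 CPM. Most of the sum was Sox4, at 18.4 to 19.3 CPM in WT PBS. The part of such cells in the fall of the replication genes was not tested.

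The genotypes were close under PBS and far apart under ADP-Hep. In PBS, 3 members were higher in KO and 0 lower in edgeR (1 at an unadjusted p under 0.05, 0 in DESeq2), with a median of 0.072 against 0.0013 over all genes, where 5.57% of genes were called higher and 5.82% lower. The 3 were Cdt1 (0.25 ± 0.06, adjusted p = 0.0074), Rrm2 (0.22 ± 0.05, adjusted p = 0.0076) and Rfc2 (0.18 ± 0.06, adjusted p = 0.040). The Rfc2 values in KO were 53.1, 54.2 and 49.97 CPM under PBS and 46.9, 49.7 and 46.7 CPM under ADP-Hep, and its call under PBS was lost in DESeq2 (adjusted p = 0.083) and without any 1 of 5 of the 6 PBS libraries (adjusted p from 0.064 to 0.14). Under ADP-Hep, 39 members were higher in KO and 0 lower in edgeR (0 at an unadjusted p under 0.05, 0 in DESeq2), against 32.8% of genes higher and 32% lower, with a median of 0.49 against 0.014. Cdc6 was 3.07-fold, Cdt1 2.82-fold, E2f2 2.42-fold and Mcm7 1.95-fold higher in KO (adjusted p = 1.8e-11, 2e-15, 2.2e-14 and 5.8e-13). The 8 not called were Mcm10, Orc1, Orc6, Gins3, Pola2, Pold2, Tyms and Rpa2. The comparisons under ADP-Hep and of the WT response share the WT ADP-Hep libraries, so the members' values are not independent between them.

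**Figure D4:**
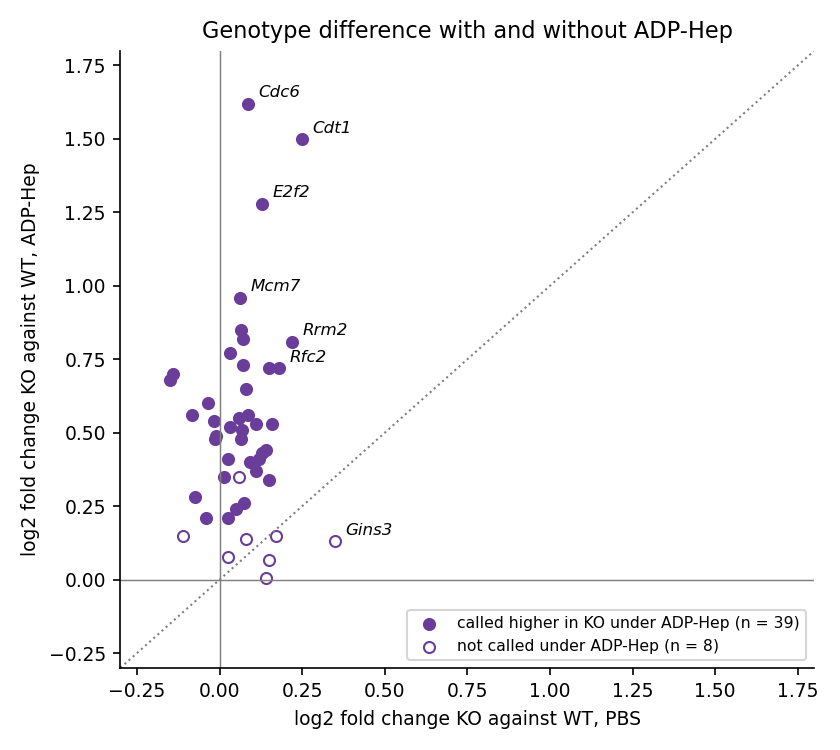
Log2 fold change of KO against WT under PBS (x axis) and under ADP-Hep (y axis) for each of the 47 members. Filled points, 39 of them, are called higher in KO under ADP-Hep; the points of Orc6, Rpa2, Gins3 and Pold2 lie below the dotted line of equal values and the others above it, with Cdc6, Cdt1, E2f2 and Mcm7 highest.

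Scaling set the zero of these comparisons. With libraries scaled by their totals alone, the median of all genes moved to -0.116 in the WT response, -0.165 in the difference between responses and 0.168 in KO against WT under ADP-Hep. The members' median relative to all genes stayed at -0.373 in the WT response and 0.025 in the KO response, and was -0.407 and -0.405 in their difference. Of all calls, the share that was higher went from 50.3 to 37.8% in the WT response, from 47.3 to 61.4% in the KO response, from 49.7 to 30.9% in their difference and from 50.5 to 67.3% in KO against WT under ADP-Hep. With that scaling 13 members, not 8, were called higher in KO, against 19.2% of all genes, not 13.7%.

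E2F-type motifs were frequent in the members' promoters. The motif TTCCCGC and its variants, which were TTGGCGC, besides TTGCCGC, besides TTCGCGC, were searched on both strands from 250 bases before to 50 bases after each RefSeq start, and matches to different motifs could overlap. At least 1 was found in 27 of the 46 windows of the 39 members in the table (58.7%), against 9.6% of all 32851 windows and 16.6% of the 12128 windows of tested genes. In the 250 bases before the start alone the shares were 39.1% and 7.9%. The member windows had a GC content of 59.9%, close to the 60.4% of tested genes. The CCAAT box, also found at many cell cycle promoters, was in 58.7% of member windows, 37.4% of all windows and 37.8% of the windows of tested genes. The cell cycle homology region TTTGAA was in 13% of member windows, near the 12.1% of tested genes, and in 17.9% of all windows.

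Members with and without an E2F-type match both fell in WT cells. Of the 24 with a match, which include Cdt1, Cdc6, E2f2, Mcm7 and Rfc1, 19 were lower and 1, Rpa2, was higher, with a median of -0.47. Of the 15 without, 11 were lower, with a median of -0.26. The range was -1.90 to 0.24 with a match and -0.56 to 0.09 without. The 2 promoters printed with a match in capitals, of Cdc6 and Rpa2, belong to members that changed in opposite directions.

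Other genes of the replication pathway, from lists outside the 47, had mixed calls in WT cells. Of 33 further replication factors, 17 were lower and 6 higher, with the nuclease and helicase gene Dna2 at -1.34 ± 0.09, the checkpoint mediator gene Clspn at -0.80 ± 0.07 and the initiation factor gene Topbp1 at -0.61 ± 0.05. Of 29 regulators of the G1 to S transition, 15 were lower and 8 higher. The E2F partner gene Tfdp2 fell (-1.44 ± 0.07), and the CDK inhibitor gene Cdkn1a (p21) rose from 168 to 335 CPM on average (1.00 ± 0.05). Myc, a growth regulator known to raise many replication genes, rose from 6.09 to 24.5 CPM (2.00 ± 0.10), while the replication genes fell. The adjusted p-values of these named genes were between 1.5e-15 and 1.8e-10.

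Of 10 checkpoint genes 4 were lower and 4 higher, against 31.6% and 31.9% of all genes. The kinase gene Wee1, a brake on CDKs, was at -1.26 ± 0.06. Of 16 other nucleotide enzymes 6 were higher and 4 lower, near the shares over all genes (31.9% and 31.6%). They included the CTP synthase gene Ctps (1.5 ± 0.13) and Samhd1 (0.45 ± 0.05), whose product degrades deoxynucleotides, and Tk2, which fell (-0.69 ± 0.08). Of 11 other S-phase chromatin genes 7 were lower and 1 higher, with the maintenance methyltransferase gene Dnmt1 going from 247 to 126 CPM (-0.97 ± 0.05) and Atad2 from 157 to 78.6 CPM (-1.0 ± 0.05). The G2 and M list held 12 lower and 0 higher of 23 in edgeR (1 higher at an unadjusted p under 0.05, 0 in DESeq2). Its median was -0.13, against -0.38 for the 47 members, and its largest falls were those of Bub1b and Kif23 (both -0.67 ± 0.05).

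In KO cells the same lists held 7 higher and 2 lower (further replication factors), 6 and 7 (G1 to S regulators), 2 and 1 (checkpoint), 7 and 1 (nucleotide enzymes), 1 and 3 (chromatin) and 3 and 3 (G2 and M). The background in KO was 13.7% of tested genes called higher and 15.3% called lower, and several of these counts, such as those of the checkpoint and G2 and M lists, are near those shares. Cdkn1a rose in KO too, by less (0.46 ± 0.05, adjusted p = 1.9e-07), and the difference between its responses was called (0.54 ± 0.07, adjusted p = 8.7e-07). Myc went the other way in KO (-0.60 ± 0.14, adjusted p = 0.0019). Under PBS, 7 of the 23 G2 and M genes were lower in KO than in WT and 0 higher in edgeR (0 at an unadjusted p under 0.05, 0 in DESeq2), against 5.82% of all genes lower.

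**Figure D5:**
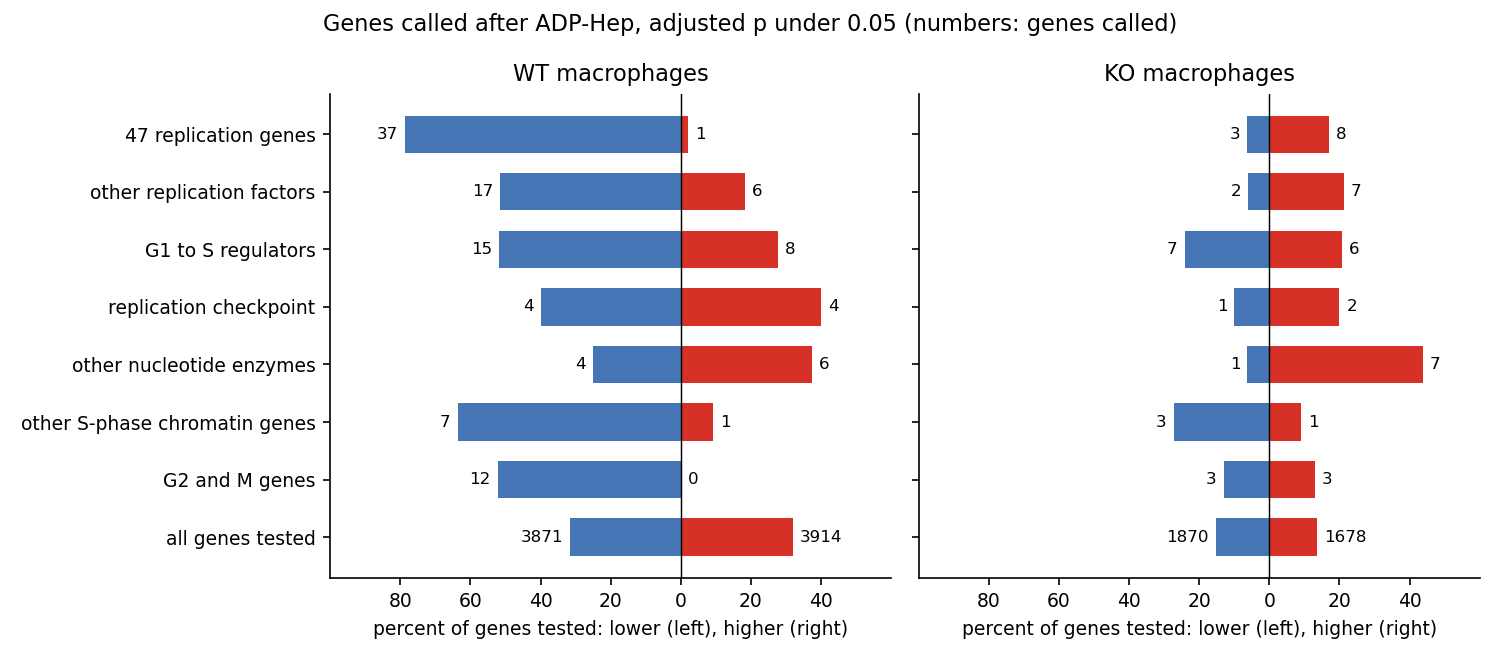
Percent of tested genes called lower (blue, to the left) or higher (red, to the right) after ADP-Hep in WT and KO for the 47 replication genes, 6 lists of related genes and all genes, with the number of genes called beside each bar. In WT the bar of the 47 is the longest to the left (37 genes), and the bars of all genes run 31.6% to the left and 31.9% to the right.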

How the data were processed

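The authors deposited 1 table of raw counts, whole numbers with a row for each gene. The library kit was a stranded mRNA kit, per the labels' protocols. STAR, RSEM, featureCounts, DESeq2, FastQC and Trim Galore are listed, per the submitters' processing notes, with the builds mm10 and hg38. The counting tool, all versions, the strand setting and the annotation release were not given in the sources used here. Overlapping or near-identical genes could thus have shared reads, and 17 members share exon bases with another gene.

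In the lower part of the table the KO values were displaced by 1 row from their gene identifiers: correlation of WT and KO levels was 0.9965 in the rows used, 0.042 below the break and 0.9787 there after moving the columns by 1 row. The 37542 rows above the break, less a margin of 100, were used, and 19206 were not. All members lie above it. The number of 1 KO ADP-Hep column matched no label, so that library carries no replicate number here.

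Counts were scaled with TMM factors and fitted in edgeR 4.0.16 (R 4.3.3, limma 3.58.1) by robust quasi-likelihood over 12 libraries in 4 groups, after filterByExpr, for 5 comparisons. The standard error is the absolute log2 fold change divided by the root of F. The fitting was tested on simulated data. Replicate libraries differed by more than counting noise, with a biological coefficient of variation of 4.81%. Alternatives were DESeq2 1.42.0, other scalings and filters, non-robust fits, a test against 1.5-fold, fits of the compared groups alone, a replicate block, all rows with KO columns moved, and leaving out each library.

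Library values are given for members with the up to 4 largest called rises and falls in each comparison, for those with opposite calls in WT and KO, and for the most abundant uncalled member of each role in WT; of each outside list, up to 3 genes with the smallest p in WT are named. Members, roles, lists and motifs were chosen with earlier results of these data known, and Rfc1 was singled out after its value was seen. Coordinates are from GENCODE M21 (GRCm38) and promoters from RefSeq (GRCm38.p6), which held 39 members. Mcm4, Gins4, Ccne2, Gins2, Gins1, Pole, Rfc2 and Prim2 were not in that table.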

Additional observations from a re-analysis of the deposited data

Results flagged for a closer look

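The response to ADP-Hep differed between WT and KO cells in 15 of the 21 members that were given with library values. The measure was the interaction term of the edgeR fit (log2 fold change in WT minus that in KO, adjusted p under 0.05). Some of the 21 were picked by this same term or by opposite calls, so their count adds no support. Over all genes tested, 24.9% were called lower and 24.6% higher by this term. The largest differences were those of Cdc6 (-1.53), Cdt1 (-1.25), E2f2 (-1.15) and Mcm7 (-0.90). Among the 15, those with opposite calls in the 2 genotypes were Ccne2 (-0.84), Ccne1 (-0.74), Dut (-0.74), Mcm6 (-0.64), Rpa1 (-0.50), Mcm4 (-0.49) and Rrm1 (-0.35). Pola1 (-0.82) and Rfc1 (-0.79) were also called but were not among the members given with library values. The other 4 of the 15 were Rrm2 (-0.59), Rfc2 (-0.54), Rfc3 (-0.42) and Mcm3 (-0.37), of which Rfc3 was not called in either genotype alone. No group held enough libraries for a test of single outlying values.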

How the results depend on the processing

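In the WT response 33 to 38 members were lower when each library was left out, and 37 with the replicate block, a fit that leaves out the unnumbered KO ADP-Hep library. Whether the replicate numbers pair the samples is not settled, because each comparison holds only 2 or 3 numbered pairs. Deviations of WT libraries with the same number correlated at 0.068, -0.124 and -0.148, and those of KO at 0.096 and -0.063. Between genotypes they correlated at 0.183, 0.071 and 0.053 under PBS and at 0.137 and 0.174 under ADP-Hep, the latter over 2 numbered pairs. Between groups that differed in genotype and treatment they ranged from -0.37 to 0.219. Tested against a 1.5-fold change, 0 members were higher and 5 lower in WT, against 8.83% of all genes higher and 8.6% lower. The 5 lower members are thus a share near that of all genes. In KO 0 members were higher and 0 lower, against 0.44% and 0.922% of all genes. In the difference between responses 6 were lower, against 5.76%. In KO against WT 0 were higher under PBS, against 0.122%, and 9 under ADP-Hep, against 8.83%. With library totals, 0 members were higher in WT and 13 in KO, against 24.4% and 19.2% of all genes. The signs of Orc6 (-0.045), Pold2 (-0.020) and Tyms (-0.097) turned in WT with that scaling. The replicate block left 5 members higher in KO, against 9.45% of all genes, and put Tyms at -0.0026 in WT. A filter of at least 1 CPM in 3 libraries gave 5 members higher in KO under PBS, against 6.11% of all genes. Leaving out single libraries gave 5 to 8 members higher and 1 to 6 lower in KO, and moved the uncalled WT values of Mcm10 between -0.048 and 0.0034, Pold2 between -0.036 and 0.17, Fen1 between -0.27 and 0.064, and Tyms between -0.025 and 0.054. The cause of these changes was not tested. Whether depth limited the calls was not tested.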
